A study of Caenorhabditis elegans with 2 samples.

Results

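The histone genes of Caenorhabditis elegans were examined for binding of CEH-9, a homeobox transcription factor, in late embryos. They were all protein-coding genes named his- plus a number in the Ensembl annotation of WBcel235, the assembly that the peak lists call ce11, and there were 72 of them among 19973 protein-coding genes on the 6 nuclear chromosomes. A gene was called clustered when another his- gene lay within 10 kb, which held for 67 genes in 14 clusters, and single otherwise, which held for 5 genes. Ensembl gives only 50 distinct names to these 72 loci, so the symbols below are those of RefSeq, which are distinct for all 72.

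CEH-9 was mapped by ChIP-seq, the sequencing of DNA precipitated with a protein, in worms of strain OP202 (unc-119(ed3) III; wgIs202), whose transgene adds CEH-9 fused at its C terminus to GFP-FLAG. The antibody was raised against GFP. Late embryos, whole and of pooled male and female sex, were taken 4.75 h after synchronization by egg bleaching, in 1 group of 2 biological replicates. Every cell type of the embryo contributed, so no summit was assigned to a cell type, and the sources used here do not name the promoter of the transgene. Each replicate has a relaxed list of 30000 peaks, the pooled list of both replicates has 30000, and the list of peaks called reproducible has 207. Read counts were not part of these lists, and depth is unknown.

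Histones package DNA into nucleosomes. H3 and H4 form the core tetramer, H2A and H2B add a dimer on each side, and H1 binds the linker DNA between nucleosomes. Most core histone genes are made in S phase from clustered, nearly identical, intronless copies whose mRNAs end in a stem-loop in place of a poly(A) tail. Replacement histones such as H3.3 are made throughout the cell cycle from separate genes with introns and polyadenylated mRNAs. Because the core genes are near copies, a short read from one often matches others. The sources used here do not say whether reads with several matches were kept.

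The sequences that frame the results are those under the best summits and those between divergent gene pairs. Each is printed 5′ to 3′ in ce11, with the bases covered by a word of 36 bases that occurs elsewhere in the genome in capitals. A length of 36 was assumed for a read. The first is the start of the coding sequence of the linker histone gene his-24, chrX:14490139-14490289 on the plus strand, which begins 2 bases after the gene's strongest summit and held no repeated word. The second lies around the other his-24 summit, chrX:14490704-14490854 on the plus strand.

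his-24 coding start: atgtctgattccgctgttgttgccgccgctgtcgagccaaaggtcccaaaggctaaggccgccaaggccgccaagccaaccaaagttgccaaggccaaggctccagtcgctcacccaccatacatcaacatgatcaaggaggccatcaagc
his-24 second summit: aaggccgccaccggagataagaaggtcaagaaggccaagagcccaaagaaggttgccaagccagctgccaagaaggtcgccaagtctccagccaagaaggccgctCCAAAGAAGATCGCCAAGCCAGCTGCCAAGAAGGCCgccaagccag

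Around the best pooled summit of any core histone gene, inside the H4 gene his-60 at chrIV:7487836-7487986 on the minus strand, 88.7% of the bases were covered by repeated words. Around the summit inside the H3 gene his-32, at chrIV:8334334-8334484 on the plus strand, 72.8% were. Both windows are coding sequence and run 75 bp to each side of the summit. Of the words lying within the window, a smaller share was repeated, 25% at his-60 and 34.5% at his-32. The later counts use that share of words.

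his-60 summit: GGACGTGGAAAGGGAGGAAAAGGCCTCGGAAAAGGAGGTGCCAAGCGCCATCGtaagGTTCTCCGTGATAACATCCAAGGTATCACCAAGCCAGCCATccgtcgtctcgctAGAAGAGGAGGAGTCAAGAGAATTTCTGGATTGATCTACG
his-32 summit: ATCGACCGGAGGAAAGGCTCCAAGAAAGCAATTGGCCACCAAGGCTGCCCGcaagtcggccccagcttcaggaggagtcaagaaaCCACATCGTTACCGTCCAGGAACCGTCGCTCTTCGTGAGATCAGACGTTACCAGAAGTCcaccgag

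The intervals between the starts of an H4 and an H3 gene show the contrast between loci with and without copies. The interval of his-60 and his-59, at chrIV:7487993-7488248, had 3.52% of its bases in repeated words, and 0% of the words lying within it were repeated. That of his-50 and his-49, at chrV:8847705-8847942, had 100%, since the interval between his-28 and his-27 is the same sequence.

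his-60/his-59 interval: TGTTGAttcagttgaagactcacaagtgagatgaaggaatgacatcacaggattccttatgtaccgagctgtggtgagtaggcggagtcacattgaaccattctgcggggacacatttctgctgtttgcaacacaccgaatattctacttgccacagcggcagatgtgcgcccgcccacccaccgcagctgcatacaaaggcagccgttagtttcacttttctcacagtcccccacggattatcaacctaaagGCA
his-50/his-49 interval: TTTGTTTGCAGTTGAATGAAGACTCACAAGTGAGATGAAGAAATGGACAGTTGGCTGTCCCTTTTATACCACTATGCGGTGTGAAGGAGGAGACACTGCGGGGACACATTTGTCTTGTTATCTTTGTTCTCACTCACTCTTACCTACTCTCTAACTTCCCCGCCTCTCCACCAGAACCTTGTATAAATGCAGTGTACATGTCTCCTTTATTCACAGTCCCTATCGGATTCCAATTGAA

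A smaller share of histone genes than of protein-coding genes in general had a summit. A summit, the position of highest signal in a peak, was counted for a gene when it lay within 1 kb of the annotated start or inside the gene. For 65 of the 72 genes no 5′ UTR is annotated, so the start used is the start codon. In the pooled list 25 of 72 histone genes had a summit (34.7%, exact 95% interval 23.9 to 46.9%), against 60.6% of all protein-coding genes. In replicate 1 the count was 24 (33.3%, 22.7 to 45.4%, against 63.6% of all genes), and in replicate 2 it was 20 (27.8%, 17.9 to 39.6%, against 60.9%). These intervals cover counting only, and genes of a cluster share summits, so the 25 genes rested on 25 distinct summits of which 13 counted for more than 1 histone gene.

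Histone genes are short, with a median length of 384 bp against 2027 bp for all genes. With the window limited to 1 kb on either side of the start, which is equally long for every gene, the counts of histone genes were the same 25, 24 and 20. The share of all genes was then 47.3% in the pooled list, 48.6% in that of replicate 1 and 47% in that of replicate 2. All 3 lists had a summit at 15 histone genes (20.8%, against 44.2% of all genes). That share of all genes again counted summits anywhere in the gene, so it was not limited to the equal window. In 32 genes a summit was present in at least 1 of these 3 lists, and 40 had none in any of them. The list of reproducible peaks held no summit at a histone gene, against 0.901% of all genes, a share that also counted summits anywhere in the gene.

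**Figure D1:**
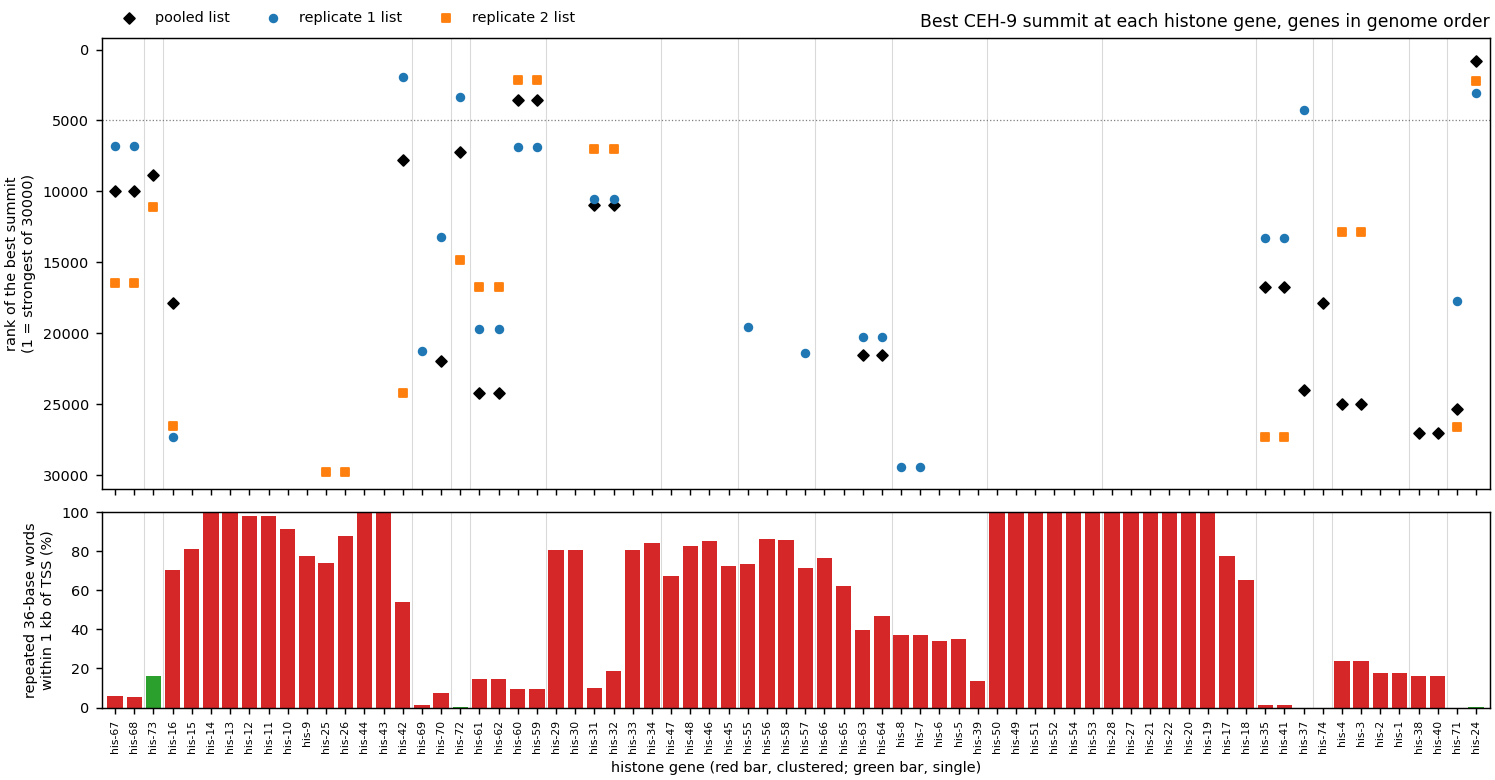
Best summit at each of the 72 histone genes in genome order. The upper plot gives the rank by signal in the pooled list (diamonds) and in the replicate lists (circles and squares), with rank 1 at the top and a dotted line at rank 5000; genes without a point had no summit. The lower plot gives the percentage of 36-base words within 1 kb of the start that occur elsewhere, with vertical lines between clusters. Genes without a point lie mostly where the lower bars are high.

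Ranks were taken from the authors' signal value within each list and were not compared in size between lists. Only 3 histone genes, his-24, his-59 and his-60, had a summit of rank up to 5000 in the pooled list (4.17%, against 18.4% of all genes). In replicate 1 there were 4, his-24, his-37, his-42 and his-72 (5.56%, against 18.5%), and in replicate 2 there were 3, the same as in the pooled list (against 18.2%). The median best rank of the 25 genes was 17842, against 9811 over all genes with a summit. In replicate 1 these medians were 13295 and 10042, and in replicate 2 they were 16451 and 9825. In all 3 lists the median of the histone genes lay below that of all genes, by a margin that differed between the replicates. These shares and medians count summits anywhere in the gene. Histone genes are shorter than most, and no correction for length was made here.

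The best-placed histone gene of the pooled list was his-24, which encodes a linker histone H1 (WBGene00001898, chrX:14490094-14491119, plus strand). Its strongest summit had rank 806 in the pooled list, 3091 in that of replicate 1 and 2227 in that of replicate 2. Its position was 43 bp after the annotated start in the pooled list, 156 bp in replicate 1 and 10 bp in replicate 2. A second summit lay 685 bp after the start in the pooled list, at rank 2601. In replicate 1 the second summit had rank 14421, and in replicate 2 rank 4945. The stronger summit fell at the end of the short 5′ UTR in the pooled list, and the weaker one in the second coding exon. In each list 1 summit lay near the start of the gene and another in its later part, and 0.10% of its words were repeated.

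The 5 genes for H3.3 and H3.3-like proteins, his-69 to his-72 and his-74, lay lower. For his-72, which encodes H3.3 type 2 (chrIII:12367475-12369050, minus strand), the best rank was 7238 in the pooled list, 3359 in that of replicate 1 and 14807 in that of replicate 2. It had 4 summits in the pooled list and 4 in replicate 1, but 1 in replicate 2. The best pooled summit lay 53 bp from the start of the longer transcript, in its first intron. The pooled summits of rank 13654 and 26562 were within 100 bp of a small nucleolar RNA gene, Y49E10.36, which lies in that intron. So were the best summits of replicate 1, 763 bp from the start, and of replicate 2, 554 bp from it. The best ranks thus belonged to different summits. Close to the start, replicate 1 had a summit of rank 4245 at 74 bp, and replicate 2 had none. For his-71, which encodes H3.3 type 1, the rank was 25319 in the pooled list, 17708 in that of replicate 1 and 26634 in that of replicate 2. Relative to the start, the pooled summit of his-71 lay at -182 bp and that of replicate 1 at -198 bp. The replicate 2 summit was another one, at 450 bp in the coding sequence. A stronger pooled summit, of rank 6469, lay 1058 bp from the start of his-71, just outside the limit. Replicate 2 had one of rank 2449 at -1089 bp, and replicate 1 had none there.

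The other 3 were not seen in every list. At his-74 the pooled list held a summit of rank 17842 at position -898 bp relative to the start, nearer to the start of the gene W05B10.3, and neither replicate list held one. The neighbours his-69 and his-70 differed: his-70 had rank 21966 in the pooled list and 13188 in replicate 1, and his-69 had a summit in replicate 1 alone, at rank 21265. The fifth single gene, his-73, encodes a short protein with a histone domain. Its summit had rank 8811 in the pooled list and 11069 in replicate 2, was missing from replicate 1, and lay after the end of his-73 in the longer gene W09H1.4, which contains his-73 on the same strand. Of the single genes, 5 of 5 had a summit in the pooled list, 3 of 5 in replicate 1 and 4 of 5 in replicate 2. Clustered genes had one in 20, 21 and 16 of 67 cases. Over all protein-coding genes the shares were 60.6%, 63.6% and 60.9%. Counting a summit only for the nearest start left 3 single and 13 clustered genes in the pooled list.

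**Figure D2:**
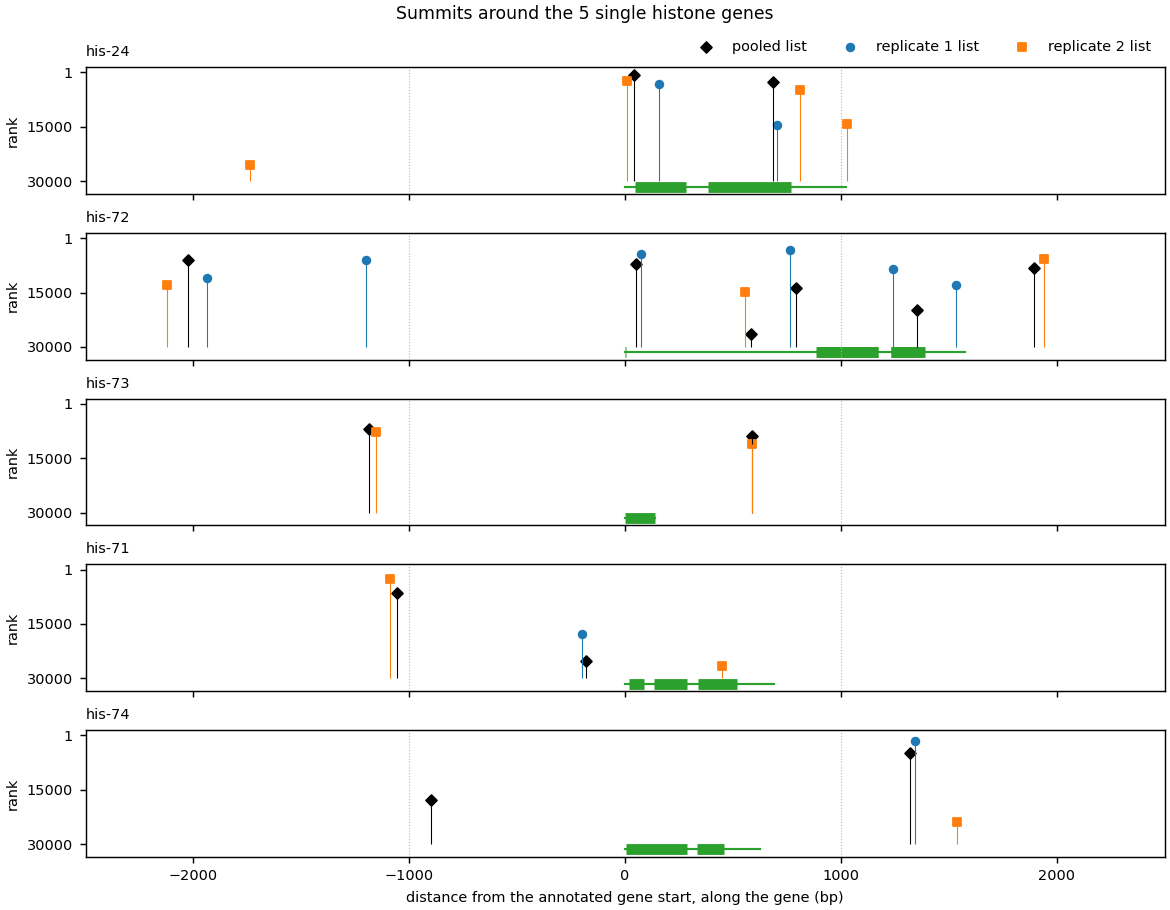
Summits within 2500 bp of the start of the 5 single histone genes. The horizontal axis is the distance in bp along the gene, the vertical axis the rank in each list with rank 1 at the top, and the green line and boxes the gene and its coding sequence. Dotted lines mark 1000 bp on either side. The summits inside his-24 have ranks from 806 to 14421 over the 3 lists, while his-74 has a single pooled summit inside the limits.

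Core histone genes were arranged in 31 divergent pairs, of which 16 joined H2A with H2B, 14 joined H3 with H4 and 1 joined H2A with H4. The shortest interval between the starts measured 227 bp, the median one 258 bp and the longest 368 bp. A summit between the starts was found in 1 pair in the pooled list, 0 in that of replicate 1 and 1 in that of replicate 2. A summit inside a gene of the pair was found in 7 pairs in the pooled list, 7 in that of replicate 1 and 6 in that of replicate 2. The genes of a pair are together longer than the interval between them, and these counts were not adjusted for length. In 16 of the 31 pairs the interval was identical to another, so all its words were repeated. Over all histone genes, 14 of the 25 distinct pooled summits lay inside a histone gene (56.0%, exact 95% interval 34.9 to 75.6%), and 9 of these in its coding sequence. Another 4 lay inside another protein-coding gene and 6 elsewhere between genes. The share of summits inside a gene over all genes is not given here, so no preference for the gene is shown.

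The H4 gene his-60 and the H3 gene his-59 shared the strongest summit of the core genes in the pooled list and in replicate 2, while in replicate 1 his-42, his-37, his-67 and his-68 ranked higher. It had rank 3564 in the pooled list, 6883 in that of replicate 1 and 2144 in that of replicate 2, and lay 81, 38 and 134 bp into his-60. In every list it thus fell inside the printed his-60 window, and not in the interval between the genes. In the same cluster the H2A gene his-61 and the H2B gene his-62 had a best rank of 24185 in the pooled list, 19682 in that of replicate 1 and 16729 in that of replicate 2. At his-61 a further pooled summit, of rank 16028, lay 1005 bp from the start, just outside the limit.

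The H4 gene his-31 and the H3 gene his-32 lie in the middle of a cluster of 6 genes. Their best rank was 10976 in the pooled list and 10535 in replicate 1, for the summit inside his-32, and 6992 in replicate 2, for a summit between the genes. The weakest of their pooled summits, of rank 25597, lay in the neighbouring gene lys-10 and counted for his-32 at 999 bp from its start, the largest distance counted for a summit outside the gene itself. The H2A and H2B pairs on either side, his-29 with his-30 and his-33 with his-34, had no summit in any list. Within 1 kb of their starts 80.7 to 84.3% of words were repeated, against 10.0% at his-31 and 18.9% at his-32.

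**Figure D3:**
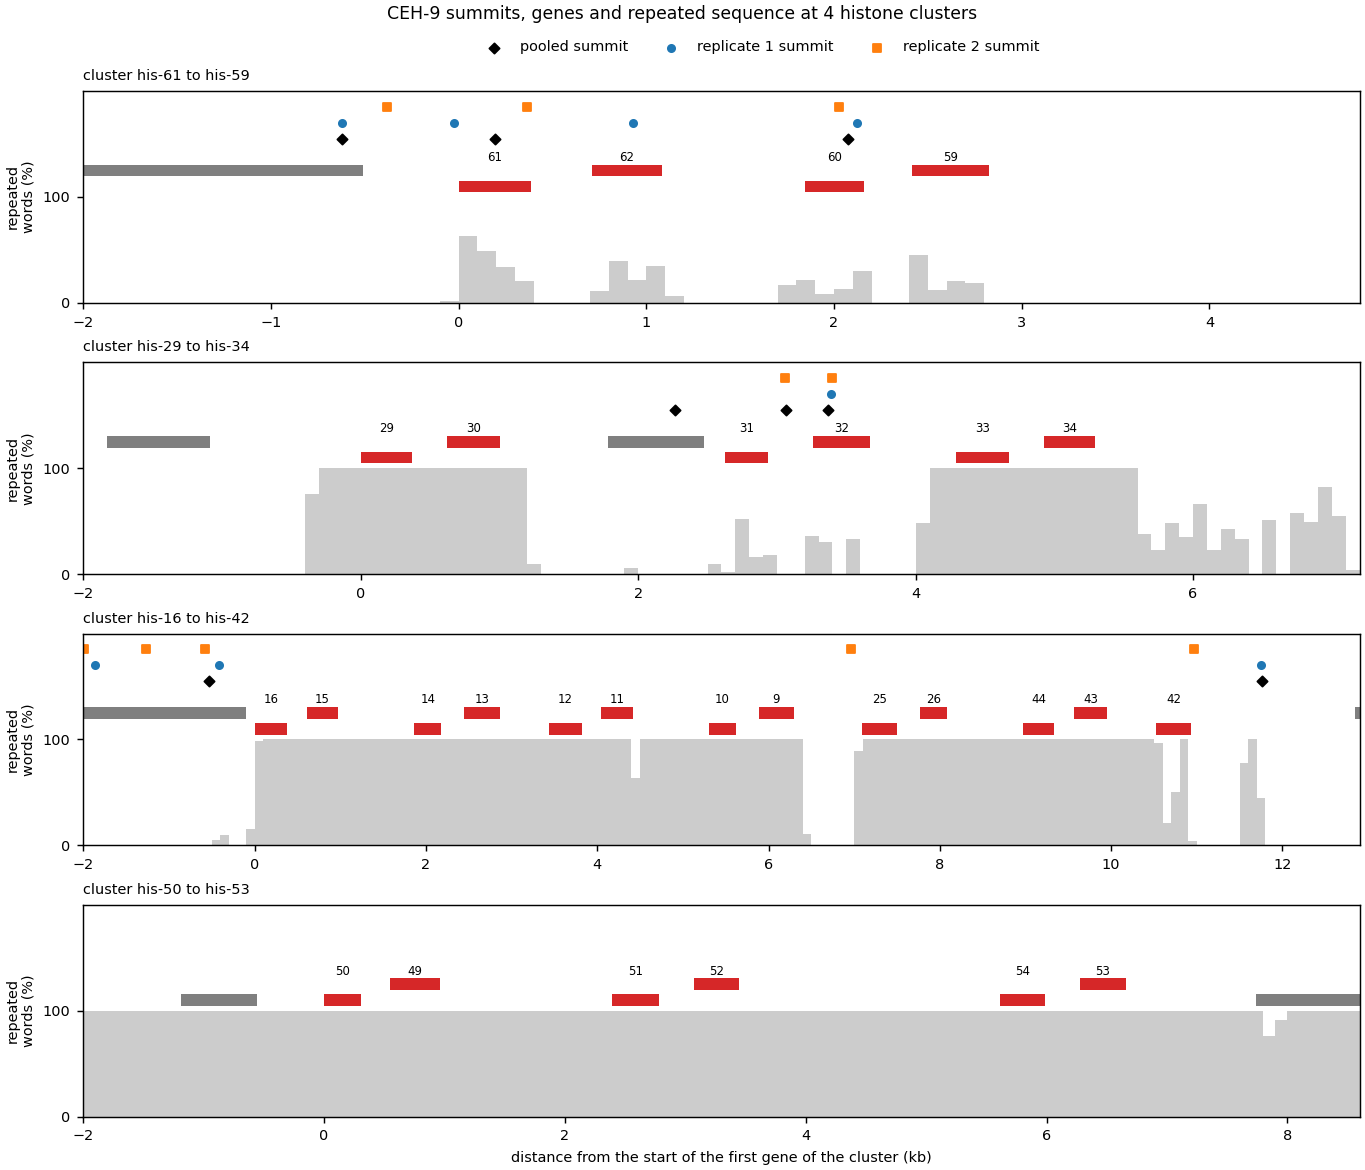
Maps of 4 histone clusters by distance in kb from the start of the first gene. Histone genes are red with their numbers, other protein-coding genes grey, with plus-strand genes above minus-strand genes; symbols above the genes are summits of each list. The grey fill at the bottom is the percentage of 36-base words that occur elsewhere, in steps of 100 bp. The cluster from his-50 to his-53 is filled at or near 100% throughout and shows no summit.

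The other best-placed cluster members ranked lower or differed between replicates. The largest cluster, 13 genes from his-16 to his-42, had pooled summits only beyond its ends and none between its first and last gene. The pooled summit near his-16, of rank 17881, lay inside another protein-coding gene, ZK131.11. At the other end, the H3 gene his-42 had rank 7814 in the pooled list, 1906 in that of replicate 1 and 24229 in that of replicate 2. The pooled and replicate 1 summits lay within 100 bp of a small nuclear RNA gene, and the one of replicate 2 lay elsewhere, 25 bp before the start of his-42. Leaving out summits within 100 bp of a transfer, small nuclear or small nucleolar RNA gene left 24, 23 and 19 histone genes with a summit. The share over all genes after the same exclusion is not given. At the H2A gene his-35 and the H2B gene his-41, which share a cluster with the H4 gene his-37, the best rank was 16723 in the pooled list, 13295 in that of replicate 1 and 27298 in that of replicate 2. At his-37 the rank was 23999 in the pooled list, for a summit in the gene C50F4.6, and 4285 in replicate 1, for another inside its coding sequence, and replicate 2 had none.

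The H2B gene his-4 and the H2A gene his-3 had rank 24988 in the pooled list, no summit in replicate 1 and rank 12858 in replicate 2. The H3 gene his-63 and the H4 gene his-64 had rank 21555 in the pooled list, 20253 in replicate 1 and no summit in replicate 2. The H4 gene his-38 and the H3 gene his-40 had rank 26998 in the pooled list and no summit in either replicate. These 3 pairs had no summit common to all lists. The H4 gene his-67 and the H2A gene his-68, by contrast, had rank 9990 in the pooled list, 6779 in that of replicate 1 and 16451 in that of replicate 2. The pooled and replicate 1 summits of these ranks lay nearer to the start of the neighbouring gene alg-5, where replicate 2 had a summit of rank 21718. The replicate 2 summit of rank 16451 was another one, inside his-68. A second pooled summit, of rank 27764, lay inside his-67.

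In 3 clusters no gene had a summit in any list. They were his-45 to his-48 and a pair of neighbouring arrays on chromosome V, the first with his-49 to his-54 and the second with his-17 to his-22, his-27 and his-28. The run of 6 genes from his-50 to his-53, at chrV:8847393-8854053, has a second copy from his-28 to his-19, at chrV:8889488-8896148. Both copies are 6661 bp long and have 0 differences, and the identity extends to an unbroken run of 15287 bp. All 14 histone genes of both arrays lay in a single stretch without a summit. In the pooled list this stretch was 87044 bp long and ranked 5 by length among the 29994 gaps between successive summits, whose median was 1888 bp. In replicate 1 it was 95781 bp and in replicate 2 it was 107920 bp, with rank 2 in both. Repeated words made up 97.9% of the pooled stretch, 88.9% of that of replicate 1 and 78.9% of that of replicate 2.

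The presence of a summit moved with repeated sequence across the histone genes. The median share of repeated words was 99.3% over the histone genes themselves and 70.7% within 1 kb of their starts, and both medians were 0 over all protein-coding genes. In 35 histone genes every word was repeated, and 0 of these had a pooled summit, against 0.847% of the 236 such genes in all. In replicate 1 it was 1 of 35, his-55 (against 2.97%), and in replicate 2 it was 2 of 35, his-25 and his-26 (against 2.97%). The his-55 summit lay outside the gene, and so did the summit of rank 29781 that his-25 and his-26 shared. Neither had a repeated word within 75 bp. Of the 40 histone genes without a summit in any list, 31 had 75% or more repeated words within 1 kb of the start. The following classes were chosen after the data were seen.

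Where under 25% of the words within 1 kb of the start were repeated, 21 of 25 histone genes had a pooled summit there (84%, exact 95% interval 63.9 to 95.5%), against 49.2% of all genes in that class. In both replicate lists the count was 16 of 25 (64%), against 50.5% in replicate 1 and 48.8% in replicate 2. These 21 genes rested on 21 distinct summits at 12 clusters or single genes. The 4 without a pooled summit were his-1, his-2, his-39 and his-69. With 25 to under 75% repeated words, 4 of 15 histone genes had a pooled summit (against 24.2% of all genes), 8 in replicate 1 (against 25.4%) and 3 in replicate 2 (against 26.8%). With 75% or more, 0 of 32 had one in the pooled list and 0 in replicate 1, against 0% of the 295 genes in that class in each list. In replicate 2 it was 1 of 32, his-26, against 0.678%.

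**Figure D4:**
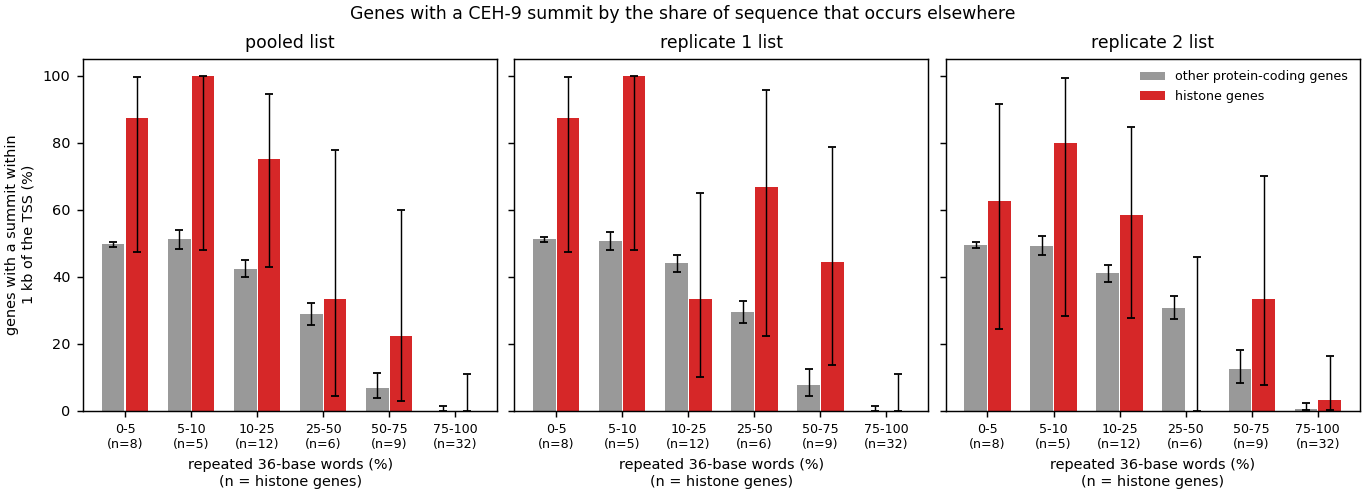
Percentage of genes with a summit within 1 kb of the start, by the percentage of 36-base words there that occur elsewhere, in the pooled list and each replicate list. Red bars are histone genes, with their number under each class, and grey bars the other protein-coding genes; error bars are exact 95% binomial intervals. Both kinds of gene approach 0 in the class of 75 to 100%, and the intervals of the histone genes are wide in the other classes.

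Base composition also moved with the presence of a summit, which was more frequent at the higher GC content of the histone genes. Within 1 kb of the start the median GC content was 42.3% over the histone genes and 35.4% over all genes. Genes with under 25% repeated words had a pooled summit in 49.2% of cases at any GC content. Among those with a GC content of 40 to under 45%, 80% of 1681 genes had one, and 17 of 19 histone genes did (89.5%). In replicate 1 it was 12 of 19 histone genes (63.2%, against 76.3%), and in replicate 2 it was 15 of 19 (78.9%, against 80%). The share of histone genes was thus above that of the class in the pooled list and below it in both replicate lists. Across the pooled list 0.48% of summits had 75% or more repeated words within 75 bp, against 4.99% of genome positions. How repeated sequence and GC content each entered into the count of histone genes was not tested.

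Ranks in the class of under 25% repeated words, taken within 1 kb of the start for every gene, differed in direction between lists. The median best rank there was 16723 for histone genes and 12004 for all genes in the pooled list. In replicate 1 it was 10535 and 12298, and in replicate 2 it was 13832.5 and 12107.

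The 3′ stem-loop of S-phase histone mRNAs was searched within 100 bp after the stop codon on the coding strand. A match was a perfect stem of 6 bases around a loop of 4 bases. It was present at 56 of the 72 histone genes, all of them clustered, and at 7.50% of all protein-coding genes. The search took any such stem. Among 55 of the 56 genes it had 2 forms, the first in 51 genes and the second in 4, printed with the stem in capitals; the form at his-67 is not given here.

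stem-loop, first form: GGCCCTctttAGGGCC
stem-loop, second form: GGCCCTcttaAGGGCC

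None of the 8 genes for H1, H3.3-like or histone domain proteins had it. It was also missing at the core genes his-19, his-35, his-37, his-41, his-47, his-53, his-57 and his-68. In his-19, his-47 and his-53 every word of the gene was repeated. The 16 genes without the stem-loop were thus of mixed type. A pooled summit was found at 15 of the 56 genes with the stem-loop and at 10 of the 16 without, against 60.6% of all genes. With under 25% repeated words the counts were 11 of 13 and 10 of 12 in the pooled list, 7 of 13 and 9 of 12 in replicate 1, and 9 of 13 and 7 of 12 in replicate 2. Over all genes of that class the shares within 1 kb of the start were 49.2%, 50.5% and 48.8%. Whether genes with and without the stem-loop differ was not tested.

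By type, a pooled summit was found at 6 of 16 H4 genes, 5 of 15 H3 genes, 5 of 17 H2A genes, 3 of 16 H2B genes, 4 of 5 H3.3-like genes, 1 of 2 histone domain genes and the 1 H1 gene, against 60.6% of all genes. In replicate 1 these counts were 5, 5, 6, 3, 4, 0 and 1 (against 63.6%), and in replicate 2 they were 4, 4, 5, 3, 2, 1 and 1 (against 60.9%). Among the core types the lowest median share of repeated words over the gene, 90.3%, was that of H4, and the highest, 100%, was that of H2A and H2B. Letters TAATTA, a core that many homeodomains bind, read the same on both strands and were in 0 of the 25 windows of 151 bp around the pooled summits, against 5.14% of all pooled summits. TAATTG on either strand was also in 0 of 25, against 9.27%. In replicate 1 TAATTA was in 2 of 24 windows (against 5.74% of its summits), at his-16 and his-72, and TAATTG in 1 of 24 (against 9.84%). In replicate 2 both were in 0 of 18 (against 5.42% and 9.44%). These matches describe the letters only and say nothing of how the protein was held there.

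Genes that act with histones were read from a list of 22, made up of H1-like genes, histone variants, chaperones and the stem-loop binding protein. A pooled summit was found at 17 of them (77.3%, against the 60.6% of all genes), with a median best rank of 12232. In replicate 1 the count was 16 (72.7%, against 63.6% of all genes) and in replicate 2 it was 17 (77.3%, against 60.9%). A rank up to 5000 was reached by 5 in the pooled list (22.7%, against 18.4% of all genes), 6 in that of replicate 1 (27.3%, against 18.5%) and 2 in that of replicate 2 (9.09%, against 18.2%). The best was chaf-2, a subunit of the chromatin assembly factor that places H3 and H4 behind the replication fork, with rank 158 in the pooled list, 313 in that of replicate 1 and 322 in that of replicate 2. For spt-16, a subunit of the FACT chaperone, the ranks were 2001, 13992 and 525. The H1-like gene hil-2 had ranks of 2503, 3123 and 7202.

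The CENP-A-like gene cpar-1, related to the H3 of centromeres, had rank 3017 in the pooled list, 955 in that of replicate 1 and 16616 in that of replicate 2. The H3-H4 chaperone gene unc-85 had ranks of 4370, 2289 and 14709. Among these 5 genes chaf-2 was high in all lists, and each of the others was lower in 1 replicate than in the other. The gene for the stem-loop binding protein, cdl-1, had ranks of 18673, 19082 and 14611.

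The limits of the grouping were far from most genes. The largest distance from a clustered gene to its nearest histone gene was 988 bp, at his-39, and the smallest for a single gene was 633915 bp, at his-73. The narrowest gap that separated a pair of clusters was 10855 bp, between his-45 and his-55, and the widest inside a cluster was 4976 bp, between his-65 and his-63. At the limit of 1 kb, his-16 with a summit at 917 bp and his-32 at 999 bp were just inside.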

How the data were processed

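ChIP-seq peak lists of tagged CEH-9 in late embryos (1 group, 2 replicates, numbered in the labels) were used. Per the file headers and the labels, each relaxed list was made from a replicate's alignments and a control, or from both replicates and a control, and the reproducible list from these by an irreproducible discovery rate threshold. For each peak the authors deposited a signal on the scale of their peak caller, used here only by rank within a list. The sources used here do not give the aligner, caller, versions or thresholds, and the control was not analysed here. The ce10 lists were not used.

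Genes came from Ensembl WBcel235, with symbols and histone types from RefSeq matched by WormBase identifier (72 of 72). Summits were assigned within 1 kb of the gene start or inside the gene. Words of 36 bases (50 as an alternative) that occur elsewhere on either strand of the RefSeq genome were counted as repeated. Exact binomial (Clopper-Pearson) intervals at 95% cover counting only. Depth is unknown. With 1 group no test between conditions was made. Genes were named by a rule: rank up to 5000, the best of each cluster, every single gene, those at the limits, and listed related genes of rank up to 5000; others were named after their values were seen. The members and lists were chosen with earlier results of these data known. Functions were tested on simulated data. Alternatives covered replicates, distances, ranks, nearest starts and word length. Python 3.11.15, numpy 2.4.6, scipy 1.17.1, pandas 2.3.3 and matplotlib 3.10.9 were used.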

Additional observations from a re-analysis of the deposited data

How the results depend on the processing

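In all, 48 alternatives were computed, and 33 stayed close to the reported value. Close meant within 1.5 times for counts, 1 SD between the replicates for the median rank, and the counting interval for shares of summits or genes. Cluster distances of 5 and 20 kb are among the 33 but could move no gene between clustered and single. The 64% of low-repeat genes with a summit in either replicate list, against 84%, passed only at the interval's lower end of 63.9%. With each replicate list in place of the pooled list, the number of histone genes with a summit was 20 to 24, clustered 16 to 21, single 3 to 4, within 1 kb of the start 20 to 24 and with rank up to 5000 it was 3 to 4. The median best rank was 13295 to 16451, and 61.1 to 62.5% of distinct summits lay inside a histone gene. A distance of 500 bp left 3 single genes and a median best rank of 21555, and 2 kb gave a median of 10976. Keeping ranks up to 15000 left 10 histone genes, 7 clustered, 3 single and 6 common to all lists. Counting a summit only for the gene with the nearest start left 16 histone genes, 13 clustered and 3 single, and 16 within 1 kb. With rank limits of 2000 and 10000 the strongest genes numbered 1 and 8. A limit of 10% repeated words, chosen after seeing the data, gave 92.3% of histone genes with a summit. Words of 50 bases gave a median of 99.3% repeated words. No paired analysis was possible because the series has 1 group. Depth is unknown, so a gene without a summit is not shown to lack binding. The cause of these shifts was not tested, beyond what fewer summits or a narrower window leave by construction.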
